A study of Mus musculus with 18 samples.

Results

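CD8+ T cells were compared with the remaining T cells of livers from tumour-bearing mice under combined immunotherapy. All 6 libraries came from CD45+CD3+ cells: 3 were sorted as CD8+ (CD3+CD8+) and 3 as CD8- (CD3+CD8-), each numbered 11, 2 and 19, out of 18 libraries in the series. They were chosen by their labels alone, with no measured value. The mice were wild-type C57BL/6J animals bought at 7 weeks of age and kept for 1 week before use, with primary liver cancer induced by oncogenes. All 6 libraries carry the same treatment label, poly(I:C) combined with anti-PD-L1. Poly(I:C) imitates viral double-stranded RNA and was dosed at 4 mg/kg; the antibody, dosed at 200 µg, blocks a ligand of PD-1. Both were injected on alternate days, 6 times. The dosing protocol also lists an antibody against VEGF-A at 5 mg/kg, which the treatment label of these libraries does not name. No label says whether a number stands for an animal, whether animals were pooled, or whether replicates came from separate animals, so the p-values measure the spread between these libraries, which may be partly technical. Sex-linked transcripts, given below, set the libraries numbered 2 apart from those numbered 11 and 19.

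T cells that carry CD8 recognise peptides on MHC class I and, once activated, kill target cells with granzymes and perforin. The CD3+CD8- gate is broader: it takes in CD4+ helper cells, which read MHC class II and provide help through CD40 ligand and cytokines, FOXP3+ regulatory T cells, and smaller populations such as gamma-delta T cells and NKT cells. The transcription factor ThPOK, encoded by Zbtb7b, fixes the CD4 fate in the thymus, while RUNX factors, RUNX3 above all, silence Cd4 and maintain the CD8 fate.

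The libraries held between 2990098 and 19115752 counts. In 5 of them, 0.515% to 1.47% of counts fell on 5 ribosomal loci, against 84% in CD3+CD8- number 2, which left 1654913 counts on all other genes there. Levels are given below as CPM, library-size-adjusted counts after scaling with TMM factors, always in the order 11, 2 and 19. Cd3e, a chain of the CD3 complex on which both fractions were gated, was 255, 369 and 398 CPM in CD3+CD8+ libraries and 264, 293 and 242 CPM in CD3+CD8- libraries, so the groups overlapped. Ptprc, which encodes CD45, was 3261, 2628 and 1695 CPM against 2560, 2539 and 1876 CPM, again with overlap.

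The genes of the sort itself differed as labelled in every library. Cd8a, the alpha chain of CD8 (ENSMUSG00000053977.13, chromosome 6, 71373427 to 71379173), stood at 1129, 1374 and 1306 CPM in CD3+CD8+ cells and at 13.1, 25.2 and 8.17 CPM in CD3+CD8- cells. The log2 fold change, written throughout as CD3+CD8+ minus CD3+CD8-, was 6.39 ± 0.54 (SE; edgeR adjusted p = 0.000173). Cd8b1, the beta chain (ENSMUSG00000053044.8, chromosome 6, 71322788 to 71337494), was 451, 882 and 833 CPM against 10.7, 24.4 and 21.2 CPM, a log2 fold change of 5.27 ± 0.48. No library of either group came near the other group for these chains. Cd4 (ENSMUSG00000023274.14, chromosome 6, 124864692 to 124888221) ran the other way, with 33.7, 26.9 and 39.3 CPM in CD3+CD8+ cells and 1034, 481 and 929 CPM in CD3+CD8- cells (log2 fold change -4.61 ± 0.42, edgeR adjusted p = 0.000195). These are bulk samples, in which fewer cells of a type and less RNA per cell cannot be told apart.

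The 250 bases before the RefSeq start of Cd8a (build GRCm38.p6, chr6:71373177-71373426, plus strand) are shown because this gene defines the comparison. They were searched on both strands for the core of RUNX binding sites (TGTGGT or its reverse complement ACCACA) and for the AP-1 site TGANTCA, which reads the same on both strands; matches would stand in capitals, and there were none in this window.
Cd8a: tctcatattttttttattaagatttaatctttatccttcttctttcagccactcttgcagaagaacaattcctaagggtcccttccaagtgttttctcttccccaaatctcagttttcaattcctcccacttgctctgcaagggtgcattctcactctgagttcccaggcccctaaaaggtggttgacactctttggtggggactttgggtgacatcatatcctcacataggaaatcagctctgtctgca

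**Figure D1:**
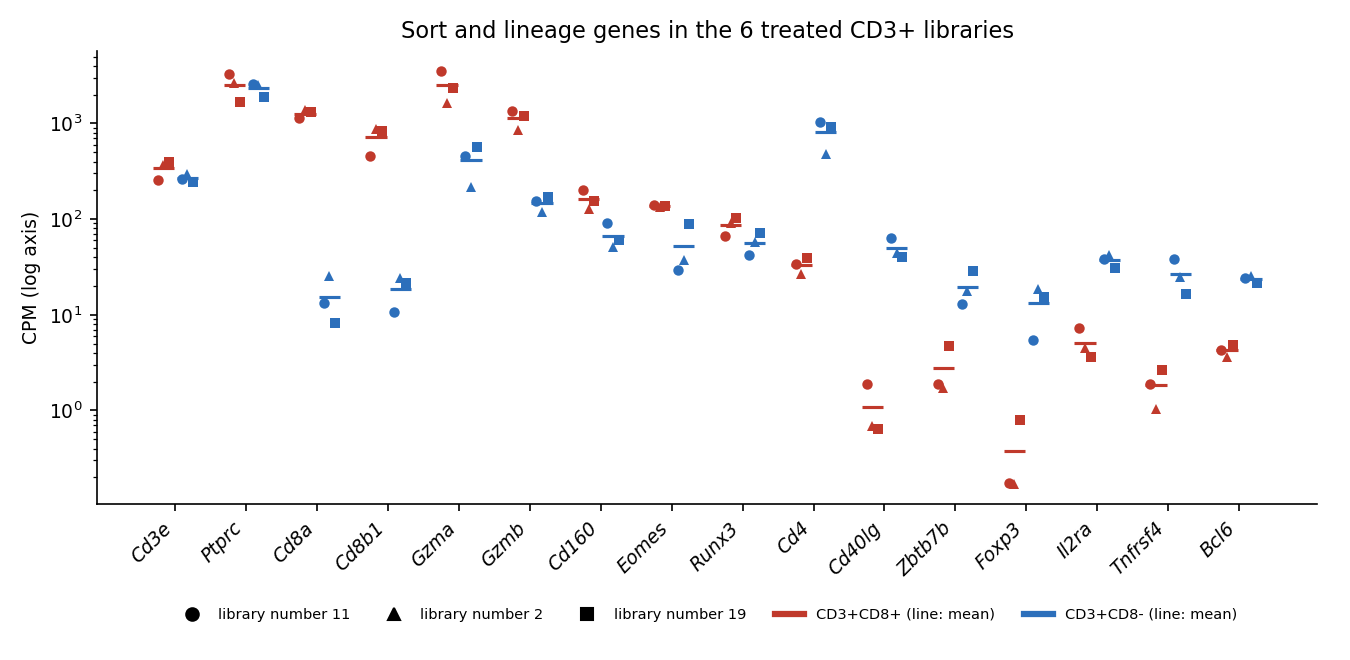
CPM on a log axis for 16 sort and lineage genes in the 6 treated CD3+ libraries; each point is a library, its shape gives the library number and the line is the mean of 3. Cd3e and Ptprc overlap between the fractions, Cd8a, Cd8b1, Gzma and Gzmb lie higher in all CD3+CD8+ libraries, and Cd4, Cd40lg, Zbtb7b and Foxp3 lie higher in all CD3+CD8- libraries.

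Across all 12068 genes tested, 652 (5.4%) differed at an edgeR adjusted p below 0.05. Of these, 52 (0.431%) were higher in CD3+CD8+ cells and 600 (4.97%) were higher in CD3+CD8- cells. The median log2 fold change of all genes was 0.02. Whether called or not, 671 genes (5.56%) were higher in all CD3+CD8+ than in any CD3+CD8- library, and 1317 (10.9%) were lower. With the library number as a block, 1069 genes (8.86%) were called: 152 genes (1.26%) were higher in CD3+CD8+ cells and 917 (7.6%) in CD3+CD8- cells, and all 652 genes called without the block were called with it. Without both libraries numbered 2, the pair of female pattern, 7 genes were higher in CD3+CD8+ cells and 175 in CD3+CD8- cells. That fit holds 4 libraries, and no other pair was left out. The 52 became 26, 21 and 32 when CD3+CD8+ number 2, CD3+CD8- number 2 or CD3+CD8- number 11 was left out alone.

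**Figure D2:**
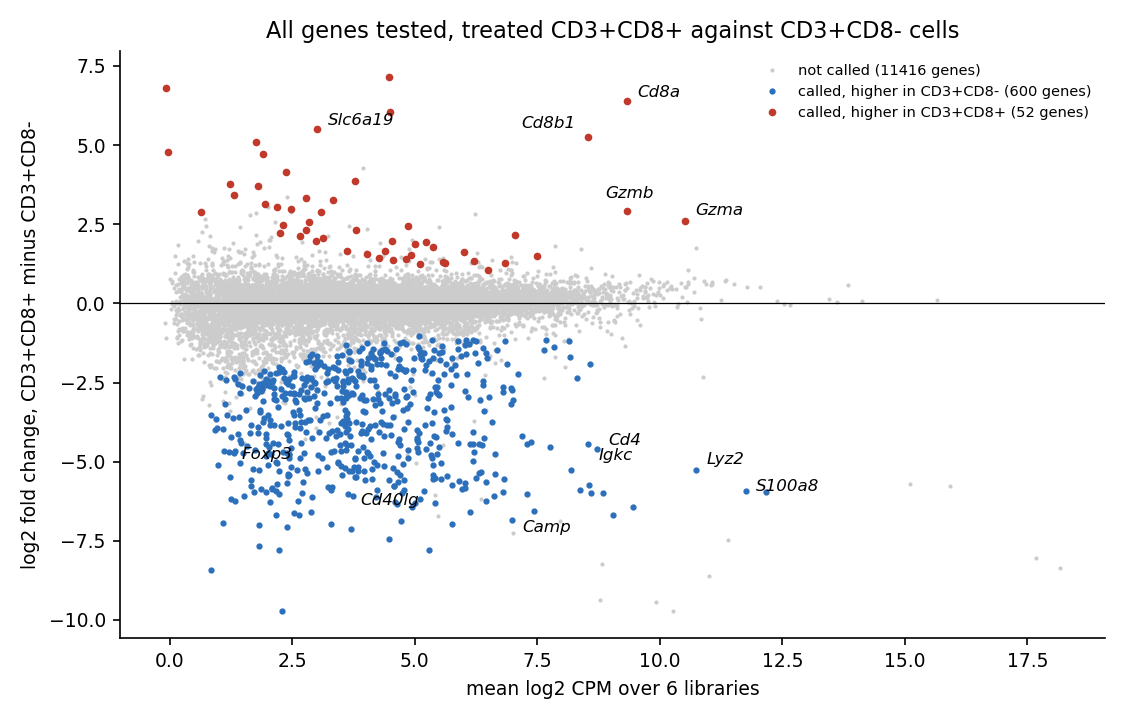
Log2 fold change of all 12068 genes tested against their mean log2 CPM over the 6 libraries, with called genes in colour. Red points above 0 are the 52 genes higher in CD3+CD8+ cells and blue points below 0 the 600 genes higher in CD3+CD8- cells.

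Granule proteases were among the genes higher in CD8+ cells. Gzmb, granzyme B, a serine protease that triggers apoptosis in target cells (ENSMUSG00000015437.4, chromosome 14, 56258856 to 56262260), was 1342, 862 and 1182 CPM in CD3+CD8+ cells and 156, 118 and 170 CPM in CD3+CD8- cells (log2 fold change 2.93 ± 0.36, edgeR adjusted p = 0.00103). Gzma, granzyme A (chromosome 13, 113093825 to 113100979), was 3503, 1632 and 2371 CPM against 459, 214 and 563 CPM (log2 fold change 2.60 ± 0.51, edgeR adjusted p = 0.0151). For both proteases the lowest CD3+CD8+ library exceeded the highest CD3+CD8- library. CD3+CD8- cells nonetheless held at least 118 CPM of Gzmb and 214 CPM of Gzma in every library.

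The 250 bases before the RefSeq starts of Gzmb (chr14:56262335-56262584, minus strand) and Gzma (chr13:113100982-113101231, minus strand) are shown as those of the called effector genes, with matches to the RUNX core and the AP-1 site in capitals. Gzmb held the RUNX core 93 and 34 bases before its start and an AP-1 site, TGAGTCA, 58 bases before it. Gzma held the RUNX core 50 bases before its start, on the opposite strand.
Gzmb: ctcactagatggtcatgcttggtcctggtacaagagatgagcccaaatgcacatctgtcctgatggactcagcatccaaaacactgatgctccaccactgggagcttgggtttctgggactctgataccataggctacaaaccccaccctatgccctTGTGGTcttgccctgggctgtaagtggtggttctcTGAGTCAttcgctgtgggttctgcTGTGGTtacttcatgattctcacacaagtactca
Gzma: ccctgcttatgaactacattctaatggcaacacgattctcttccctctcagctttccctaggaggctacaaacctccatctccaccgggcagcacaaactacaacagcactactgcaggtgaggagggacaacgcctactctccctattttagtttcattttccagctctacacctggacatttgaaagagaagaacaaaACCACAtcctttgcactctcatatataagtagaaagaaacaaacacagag

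Such matches are common, so they describe these windows and no more. Of 32851 promoter windows of that length in the RefSeq table, 14% held the RUNX core and 6.75% the AP-1 site; of 11011 windows of genes tested, 11.4% and 4.42% did. Among genes higher in CD3+CD8+ cells, 7 of 40 windows (17.5%) held the RUNX core, and among genes higher in CD3+CD8- cells 78 of 526 (14.8%) did. The AP-1 site was in 5 of 40 (12.5%) and 40 of 526 (7.6%) windows of the same sets.

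Of the 19 tested genes of cytotoxic granules and death ligands, Gzma and Gzmb were called higher and none lower, with a list median of 0.94 against 0.02 for all genes. The other members include some with negative log2 fold changes, such as Lamp2, a lysosomal membrane protein (-1.09), and Srgn, the granule proteoglycan serglycin (-0.76). With the block, 9 members were higher and 1 (Lamp2) lower, where 1.26% and 7.6% of all genes were called. Without it these shares were 0.431% and 4.97%. Gzmk, granzyme K, was 525, 496 and 527 CPM in CD3+CD8+ cells and 118, 60.8 and 294 CPM in CD3+CD8- cells (log2 fold change 1.70 ± 0.51, edgeR adjusted p = 0.117 without the block and 0.00636 with it). Prf1, perforin, which opens the pore for granzymes, was 63.8, 98.2 and 185 CPM against 12.9, 30.6 and 69.5 CPM, and its groups overlapped because number 19 was high in both (edgeR adjusted p = 0.237 without the block and 0.000412 with it). Fasl, the death ligand for FAS, was 155, 165 and 141 CPM against 76.3, 67.5 and 92.6 CPM (edgeR adjusted p = 0.0612 without the block and 0.0142 with it). For Prf1, Gzmk and Fasl the CD3+CD8+ library was the higher in all 3 pairs.

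The chemokine Ccl5, stored in granules of memory CD8+ cells, was 1911, 3031 and 2913 CPM against 599, 500 and 1244 CPM (log2 fold change 1.75 ± 0.48, edgeR adjusted p = 0.0828 without the block and 0.0169 with it). Nkg7, a granule membrane protein, was 349, 567 and 945 CPM against 326, 181 and 461 CPM and passed neither test (edgeR adjusted p = 0.517 and 0.148). Its pair 11 was nearly level while pairs 2 and 19 were apart.

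**Figure D3:**
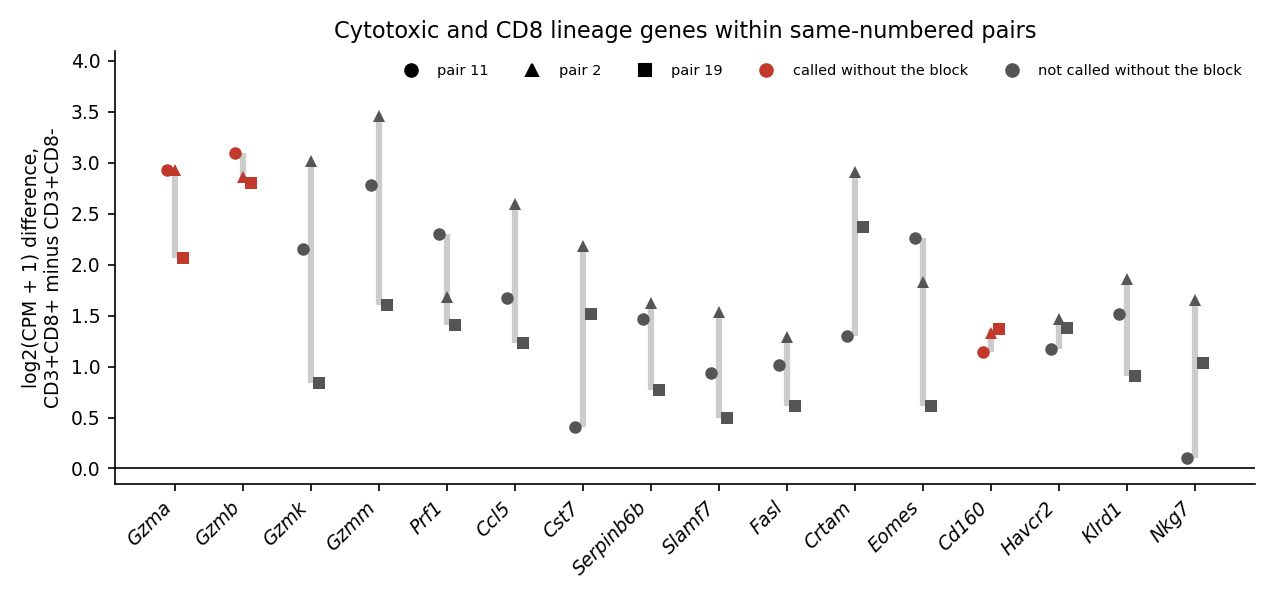
Difference in log2(CPM + 1), CD3+CD8+ minus CD3+CD8-, within each same-numbered pair for 16 cytotoxic and CD8 lineage genes; each symbol is a pair and the grey bar spans the 3. Gzmb, Gzmk, Ccl5, Nkg7 and Havcr2 are fixed genes, and Gzma and Cd160 were picked by rule among called genes. The rest, and the set shown, were chosen after their values were seen, so that all differences lie above 0 was fixed by the choice. Those of Gzmb and Cd160 are close together and those of Gzmk, Cst7 and Nkg7 are wide.

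Among 15 genes of the CD8 lineage, 3 were higher without the block (Cd8a, Cd8b1 and Cd160) and none lower, and the list median was 1.17; Cd8a and Cd8b1 are the sort markers themselves. With the block 8 were higher and 1 lower. The shares over all genes were 0.431% higher and 4.97% lower, and 1.26% and 7.6% with the block. Cd160, a receptor for HVEM on cytotoxic cells, was 200, 128 and 156 CPM against 90.4, 50.9 and 60.3 CPM (log2 fold change 1.26 ± 0.31, edgeR adjusted p = 0.0455). It was called in 14 of 27 settings tried, against 23 of 27 for Gzmb and 22 of 27 for Gzma. Eomes, a T-box factor of effector and memory CD8+ cells, was even in CD3+CD8+ cells at 142, 134 and 137 CPM and ranged over 29.5, 37.7 and 89.6 CPM in CD3+CD8- cells (edgeR adjusted p = 0.0996 without the block and 0.00665 with it). Crtam, an adhesion receptor of activated cytotoxic cells, was 56.9, 56.5 and 33.05 CPM against 23, 7.45 and 6.31 CPM (edgeR adjusted p = 0.0524 without the block and 0.000734 with it). Runx3 was 66.8, 91.8 and 103 CPM against 41.9, 57.1 and 71.6 CPM, with overlap and no call in either fit (log2 fold change 0.62 ± 0.29).

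Among genes whose log2 CPM averaged 3 or more, leaving out antigen receptor segments and unnamed gene models, the largest differences towards CD8+ cells also included genes less often met in T cells. Slc6a19, a neutral amino acid transporter best known from gut and kidney, was 6.4, 20.5 and 17.1 CPM against 0.248, 1.24 and 0.113 CPM (log2 fold change 5.50 ± 0.85, edgeR adjusted p = 0.00343). Its CD3+CD8- values rest on 1, 3 and 2 counts. Lcn4, a lipocalin, was 22.7, 20.5 and 10.03 CPM against 1.98, 2.07 and 1.63 CPM (log2 fold change 3.25 ± 0.45). Glp1r, the receptor for the incretin hormone GLP-1, was 14.9, 3.96 and 23.1 CPM against 0.991, 2.07 and 2.42 CPM (log2 fold change 2.89 ± 0.66, edgeR adjusted p = 0.0338). Their levels are low beside those of the granzymes. That no CD3+CD8- library reached the lowest CD3+CD8+ library was a condition of choosing these genes. Adgrg5, an adhesion G protein-coupled receptor (2.33 ± 0.45), and Itgad, the integrin alpha D chain (2.06 ± 0.42), were higher in the same way on the log2 scale.

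Some antigen receptor genes also differed. Of 61 variable, diversity or joining segments of T cell receptors that were tested, 9 were higher in CD3+CD8+ cells and none in CD3+CD8- cells (median 0.63), where 0.431% of all genes were higher. Trbv14 was 54.5, 48.2 and 41.9 CPM against 9.16, 10.8 and 7.27 CPM, and Trbv19 was 45.8, 44.8 and 42.3 CPM against 18.6, 12.4 and 15.2 CPM; both were chosen after their values were seen. Tcrg-C2, a gamma chain constant gene, was 319, 181 and 141 CPM against 49.0, 54.2 and 40.5 CPM (log2 fold change 2.16 ± 0.35, edgeR adjusted p = 0.00463), and Trgv2 was 71.4, 43.2 and 35.5 CPM against 17.8, 13.2 and 10.5 CPM. Trdc, the delta chain constant gene that a gamma-delta cell must use, was 7.96, 10.7 and 4.14 CPM in CD3+CD8+ cells against 14.1, 28.1 and 17.3 CPM (edgeR adjusted p = 0.137 without the block and 0.00844 with it). Another gamma gene, Tcrg-V4, was 2.08, 1.21 and 0.608 CPM against 2.97, 7.86 and 2.99 CPM and was called in neither fit. Segments and constant genes of these families resemble one another, so the counting may have split reads among them.

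The helper side of the comparison was led by Cd40lg, CD40 ligand, the signal by which helper cells license B cells and dendritic cells. It was 1.90, 0.689 and 0.646 CPM in CD3+CD8+ cells and 63.9, 44.3 and 40.0 CPM in CD3+CD8- cells (log2 fold change -5.63 ± 0.49, edgeR adjusted p = 0.000176). Zbtb7b was 1.90, 1.72 and 4.67 CPM against 12.9, 17.8 and 28.6 CPM (log2 fold change -2.76 ± 0.50, edgeR adjusted p = 0.00911). Both genes were higher in every CD3+CD8- library. Of 14 genes of the CD4 helper lineage, 4 were higher in CD3+CD8- cells (Cd4, Cd40lg, Zbtb7b and St8sia6, a sialyltransferase) and Ctla2a, which encodes a cysteine protease inhibitor, was higher in CD3+CD8+ cells; the median was -1.36. With the block 8 were higher in CD3+CD8- cells and 1 in CD3+CD8+ cells. Over all genes 4.97% and 0.431% were, or 7.6% and 1.26% with the block.

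Of the 2 RefSeq starts of Zbtb7b, the 250 bases before the downstream one (chr3:89387672-89387921, minus strand) held the RUNX core 89 bases before the start, in capitals here, and those before the upstream one held neither motif. The window is shown because ThPOK and RUNX factors are the opposed regulators of the CD4 and CD8 fates.
Zbtb7b: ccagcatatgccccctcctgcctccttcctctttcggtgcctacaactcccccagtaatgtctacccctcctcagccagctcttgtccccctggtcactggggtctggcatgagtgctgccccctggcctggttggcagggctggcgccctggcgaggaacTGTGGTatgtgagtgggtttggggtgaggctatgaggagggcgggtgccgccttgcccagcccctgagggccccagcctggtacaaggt

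By number of calls, the regulatory list led the T cell lists on the CD3+CD8- side. Of its 20 tested genes, 9 were higher there and none in CD3+CD8+ cells (median -1.71). Of all genes, 4.97% were called in that direction. With the block 12 of the 20 were higher there, where 7.6% of all genes were. Whether all 9 came from T cells was not tested. Foxp3, the factor that defines the lineage, was 0.173, 0.172 and 0.798 CPM in CD3+CD8+ cells and 5.45, 18.6 and 15.3 CPM in CD3+CD8- cells (log2 fold change -4.72 ± 0.71, edgeR adjusted p = 0.00291). In CD3+CD8+ libraries 11 and 2 this rests on 1 count each. Il2ra, the high-affinity receptor chain for IL-2, was 7.26, 4.48 and 3.61 CPM against 38.1, 41.8 and 31.0 CPM, and Tnfrsf4, which encodes OX40, was 1.90, 1.03 and 2.62 CPM against 38.6, 24.8 and 16.3 CPM. Ebi3, a subunit of IL-35 and IL-27 (log2 fold change -4.72 ± 0.77), the chemokine receptor gene Ccr8 (-4.63 ± 0.79) and Il1rl1, which encodes the IL-33 receptor ST2 (-3.95 ± 0.78), were higher in CD3+CD8- cells as well. Ctla4 was 35.3, 39.3 and 20.6 CPM against 95.8, 84.4 and 28.3 CPM and overlapped (edgeR adjusted p = 0.321 without the block and 0.0206 with it), while Ikzf2, which encodes Helios, was uneven in both fractions at 118, 43.6 and 64.2 CPM against 166, 240 and 44.6 CPM and was called in neither fit.

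Follicular helper, type 2 and type 17 genes followed. Bcl6, the factor of follicular helper cells, was 4.32, 3.62 and 4.79 CPM against 24.0, 25.2 and 21.2 CPM (log2 fold change -2.45 ± 0.32, edgeR adjusted p = 0.00123). Icos, a costimulatory receptor of the same cells, was 58.3, 53.0 and 34.8 CPM against 323, 96.0 and 81.2 CPM (edgeR adjusted p = 0.1 without the block and 0.00668 with it). Il21, their cytokine, was 9.34, 0.861 and 2.43 CPM against 241, 25.2 and 7.27 CPM, so the level in number 11 exceeded that of number 19 by far in both fractions and the groups overlapped (edgeR adjusted p = 0.0906 without the block and 0.00166 with it). Of 14 follicular helper genes, 3 were higher in CD3+CD8- cells, or 7 with the block, and none in CD3+CD8+ cells in either fit. Over all genes 4.97% were higher in CD3+CD8- cells, or 7.6% with the block.

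Of 8 tested genes of type 2 helper cells, 4 were higher in CD3+CD8- cells (Il4, Ccr4, Il1rl1 and Ccr8) and none in CD3+CD8+ cells (median -2.55); Ccr8 and Il1rl1 are also on the regulatory list. Il4 had 1, 0 and 1 counts in the CD3+CD8+ libraries and 3.22, 8.28 and 3.66 CPM in the CD3+CD8- libraries. Ccr4, a chemokine receptor, was 0.692, 0.689 and 0.418 CPM against 6.19, 14.5 and 9.86 CPM. Of 9 type 17 genes, Tmem176a and Tmem176b were higher in CD3+CD8- cells. Both are also expressed in myeloid cells, whose transcripts were in these libraries. For both lists, the share of all genes called in that direction was 4.97%. Tmem176b was 3.46, 2.75 and 5.13 CPM against 27.5, 24.0 and 43.3 CPM.

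Among innate-like T cells and NK receptors, Zbtb16, which encodes PLZF, the factor of NKT cells, was 0.346, 0 and 0.532 CPM in CD3+CD8+ cells and 2.48, 19.4 and 4.62 CPM in CD3+CD8- cells (log2 fold change -4.53 ± 0.98, edgeR adjusted p = 0.0246). Klrb1c, the NK1.1 receptor, was 18.9, 7.23 and 10.3 CPM against 77.0, 67.0 and 80.6 CPM, and Ncr1, the NK receptor NKp46, was 2.94, 0.344 and 1.75 CPM against 19.3, 30.6 and 17.7 CPM. Of 28 NK receptors and signalling genes, 5 were higher in CD3+CD8- cells, among them the adaptors Tyrobp and Fcer1g and the Fc receptor gene Fcgr3, which myeloid cells also express. Cd160 alone was called higher in CD3+CD8+ cells. With the block 9 were higher in CD3+CD8- and 5 in CD3+CD8+ cells. The shares over all genes were 4.97% and 0.431% without the block, and 7.6% and 1.26% with it. Klrd1, which encodes CD94, was 459, 240 and 113 CPM against 160, 65.8 and 60.0 CPM and overlapped (edgeR adjusted p = 0.237 without the block and 0.00282 with it).

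**Figure D4:**
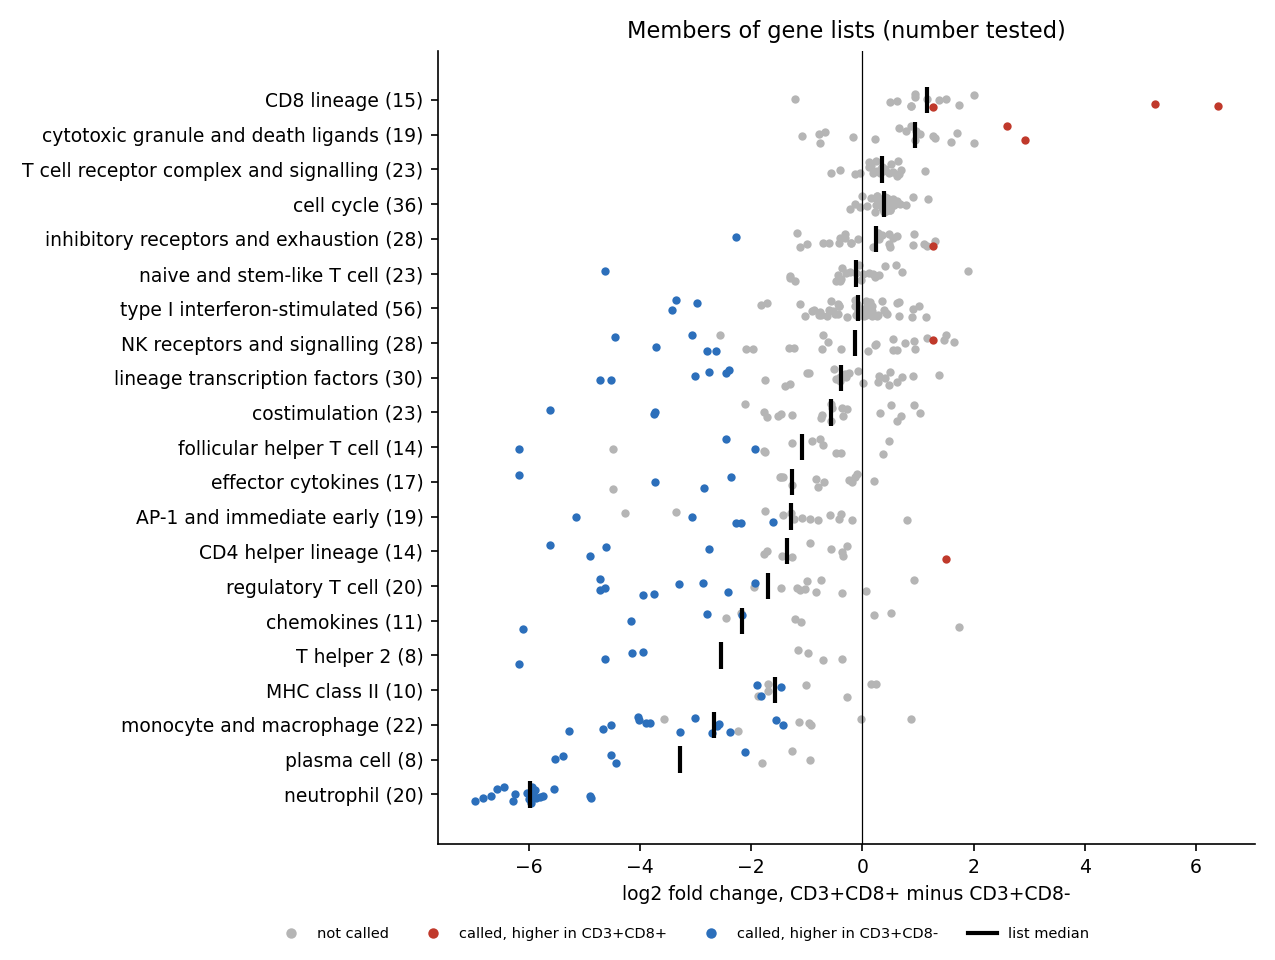
Log2 fold change, CD3+CD8+ minus CD3+CD8-, of each tested member of 21 gene lists, with the number tested in brackets; red and blue points are called genes and the black bar is the list median. Medians run from 1.17 for CD8 lineage genes to -5.97 for neutrophil genes.

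Inhibitory receptors include the targets of checkpoint antibodies. Of 28 genes of inhibitory receptors and exhaustion, Cd160 was higher in CD3+CD8+ cells and Nr4a1, a nuclear receptor induced by antigen receptor signals, was higher in CD3+CD8- cells (median 0.24). With the block, 5 were higher in CD3+CD8+ cells and 4 in CD3+CD8- cells, where 1.26% and 7.6% of all genes were. Without it these shares were 0.431% and 4.97%. Whether called or not, 8 of the 28 were higher without overlap and 2 lower, against 5.56% and 10.9% of all genes. Pdcd1, which encodes PD-1, was 143, 152 and 253 CPM against 244, 106 and 131 CPM (log2 fold change 0.19 ± 0.38). Lag3 was 46.4, 52.0 and 162 CPM against 85.4, 34.4 and 64.4 CPM (0.50 ± 0.51), and Tox, a factor linked to exhaustion, was 252, 273 and 287 CPM against 400, 123 and 141 CPM (0.29 ± 0.44). For these 3 genes the ranges overlapped, with CD3+CD8- number 11 the highest of its group each time. Havcr2, which encodes TIM-3, stood apart from them at 138, 73.4 and 122 CPM against 61.4, 26.5 and 46.8 CPM (log2 fold change 1.30 ± 0.37, edgeR adjusted p = 0.0875 without the block and 0.00107 with it).

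Several programmes gave no call in the fit without the block, which does not show that the fractions were alike. Over all genes, 0.431% were called higher in CD3+CD8+ cells and 4.97% in CD3+CD8- cells. None of 23 genes of the T cell receptor complex, 36 cell cycle genes, 16 genes of MHC class I presentation and 82 cytosolic ribosomal protein genes was called, with medians of 0.36, 0.39, 0.24 and 0.44. The sign of these medians depended on the scaling: with libraries scaled to the counts of 4 CD3 chains, which moved the median of all genes to -0.5, they were -0.2, -0.05, -0.24 and -0.1. With the block, 1 gene of the T cell receptor complex and 1 cell cycle gene were higher in CD3+CD8+ cells, where 1.26% of all genes were. Mki67, a proliferation marker, was 314, 89.5 and 74.9 CPM against 176, 78.2 and 108 CPM, so number 11 was the highest in both fractions (log2 fold change 0.40 ± 0.54). Tcf7, the factor of naive and stem-like T cells, was 194, 288 and 197 CPM against 136, 263 and 272 CPM (0.02 ± 0.34). Of 23 naive and stem-like genes the only call without the block was Ly6c1, 0.519, 1.89 and 0.608 CPM against 11.1, 32.7 and 26.5 CPM. With the block 3 were higher in CD3+CD8- cells and 1 in CD3+CD8+ cells, where 7.6% and 1.26% of all genes were. The call of Ly6c1 is uncertain, since the gene resembles Ly6c2 closely and its deposited FPKM values gave a log2 fold change of the opposite sign, 0.55.

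Treatment with poly(I:C) makes the interferon response a natural group to examine. Of 56 interferon-stimulated genes tested, 3 were higher in CD3+CD8- cells and none in CD3+CD8+ cells (median -0.07), a share near the 4.97% of all genes called in that direction. Oasl2, an antiviral oligoadenylate synthetase-like gene, was 13, 7.06 and 6.04 CPM against 76.0, 116 and 73.1 CPM (log2 fold change -3.36 ± 0.38, edgeR adjusted p = 0.000602). Oas2 (-2.97 ± 0.42) and Ifi204 (-3.43 ± 0.56), a DNA sensor of the same response, were called with it. With the block 2 were higher in CD3+CD8+ cells, among them Epsti1 (edgeR adjusted p = 0.0133), where 1.26% of all genes were. In CD3+CD8- cells 8 were higher, among them Slfn5 (edgeR adjusted p = 0.000524), where 7.6% of all genes were. Epsti1 and Slfn5 were chosen after their values were seen.

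Cytokines, chemokines and their receptors were called on the CD3+CD8- side alone in the fit without the block. Ifng, interferon gamma, was 53.4, 73.0 and 29.7 CPM against 78.8, 54.2 and 34.2 CPM and overlapped (log2 fold change -0.10 ± 0.40). Tnf was 2.94, 5.86 and 4.25 CPM against 19.8, 33.1 and 15 CPM (log2 fold change -2.36 ± 0.42, edgeR adjusted p = 0.00867), and Tnfsf11, which encodes RANKL, was 1.21, 1.38 and 0.418 CPM against 17.6, 13.2 and 6.31 CPM. Of 17 effector cytokines, 4 were higher in CD3+CD8- cells (Il4, Tnf, Tnfsf11 and Osm), and 4 of 11 chemokines were (Cxcl2, Ccl6, Ccl9 and Cxcl16). With the block 6 cytokines and 7 chemokines were higher there, and 1 chemokine, Ccl5, in CD3+CD8+ cells. The share of all genes higher in CD3+CD8- cells was 4.97% without the block and 7.6% with it. Cxcl2, a chemokine that draws neutrophils, was 0.692, 0.689 and 0.380 CPM against 18.8, 82.0 and 12.5 CPM. Among 17 chemokine receptors, Cxcr2 (-5.97 ± 0.40) and Ccr1 (-5.64 ± 0.47) had the largest log2 fold changes, and both are characteristic of neutrophils and monocytes.

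Genes of tissue residency and egress went both ways (list median 0.15). Cd44, the hyaluronan receptor of antigen-experienced cells, was 170, 152 and 88.2 CPM against 426, 555 and 344 CPM (log2 fold change -1.69 ± 0.35, edgeR adjusted p = 0.0199). Rgs2, a regulator of G protein signalling, was 47.6, 73.4 and 23.4 CPM against 222, 285 and 175 CPM, and Zfp683, which encodes Hobit, a residency factor, was 1.04, 1.21 and 1.41 CPM against 4.95, 9.11 and 5.97 CPM. These 3 of the 22 tested were called, where 4.97% of all genes were higher in CD3+CD8- cells. With the block Itgae, the integrin chain CD103, was called higher in CD3+CD8+ cells, at 14.7, 29.8 and 29.3 CPM against 5.70, 17.8 and 10.1 CPM (adjusted p = 0.0113). Of 19 AP-1 and immediate early genes, 5 were higher in CD3+CD8- cells and none in CD3+CD8+ cells (median -1.29). With the block 10 were higher in CD3+CD8- cells, where 7.6% of all genes were. Atf3 was 0.519, 0.517 and 0.722 CPM against 10.4, 43.0 and 15.2 CPM, and Dusp1, a phosphatase of the stress response, was 14.5, 56.5 and 11.8 CPM against 133, 442 and 116 CPM. Fos was 2.59, 40.1 and 5.13 CPM against 98.6, 271 and 114 CPM (edgeR adjusted p = 0.0738 without the block and 5.93e-05 with it), and number 2 had the most in both fractions. Of 19 glycolytic genes, Slc16a3, a lactate transporter (-3.79 ± 0.57), and Hk2, a hexokinase (-2.06 ± 0.34), were higher in CD3+CD8- cells.

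Transcripts of cells outside the CD3 gate were part of these differences, and their share in the calls above was not tested. All 20 tested neutrophil genes were higher in CD3+CD8- cells (median -5.97), and none overlapped between groups. Among all genes 4.97% were called higher there, and 10.9% were higher there without overlap. S100a8, an abundant neutrophil calcium-binding protein, was 254, 49.1 and 31.8 CPM in CD3+CD8+ cells and 12130, 4144 and 4061 CPM in CD3+CD8- cells (log2 fold change -5.93 ± 1.01, edgeR adjusted p = 0.00637). Summed over the list, neutrophil genes made up 117 to 772 CPM in CD3+CD8+ libraries and 14000 to 36900 CPM in CD3+CD8- libraries. Granule genes were among the largest differences named: Cd177 (-6.97 ± 0.38), Camp (-6.83 ± 0.80), Ltf (-6.68 ± 0.71), Lcn2 (-6.57 ± 0.60) and Ngp (-6.45 ± 0.96).

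Other marker lists went the same way, beside 4.97% of all genes higher in CD3+CD8- cells, or 7.6% with the block. Of 22 monocyte and macrophage genes, 15 (18 with the block) were higher in CD3+CD8- cells (median -2.66). Their sum was 1380 to 1490 CPM against 4900 to 6640 CPM. Lyz2, lysozyme, was 119, 92.3 and 48.9 CPM against 4077, 3229 and 2724 CPM. Of 8 plasma cell genes 5 (6 with the block) were higher in CD3+CD8- cells. Without the block, 42 of 53 immunoglobulin segments were as well. Jchain was 32.2, 8.09 and 13.8 CPM against 529, 192 and 517 CPM, and Igkc, the kappa light chain, was 36.1, 34.1 and 28.5 CPM against 501, 624 and 1005 CPM. Cd79a, a signalling chain of the B cell receptor, reached at most 5.79 CPM in any library of either group. For MHC class II, which antigen-presenting cells express, 3 of 10 genes (7 with the block) were higher in CD3+CD8- cells, among them H2-Ab1 at 27.3, 23.9 and 47.3 CPM against 89.2, 85.3 and 192 CPM. None of 23 hepatocyte genes was called; all 23 had a log2 fold change below 0, and the sum was 435 to 1940 CPM against 680 to 2370 CPM, with overlap. With the block, Hp (adjusted p = 0.000893) and Ass1 (adjusted p = 0.00524) were higher in CD3+CD8- cells. Hp, haptoglobin, was 4.50, 2.41 and 45.2 CPM against 101, 134 and 193 CPM and did not overlap.

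Of the 600 genes higher in CD3+CD8- cells, 87 were on a list of markers of other cells or were immunoglobulin segments. None of the 52 genes higher in CD3+CD8+ cells was. The share of such genes among all 12068 genes tested was not worked out, so no difference between the directions is read from these counts. The lists are short: 432 of the 600 and 28 of the 52 were named genes on no list, and their cell of origin was not tested. With 524 genes removed before scaling, 47 genes were higher in CD3+CD8+ cells and 487 in CD3+CD8- cells. Removed were the B cell, plasma cell, neutrophil, monocyte and macrophage, Kupffer cell, hepatocyte, and erythroid and platelet lists, and immunoglobulin genes. Mitochondrial transcripts, which mark no cell type, were removed with them. The lists of dendritic cells, mast cells and basophils, and endothelial and stellate cells were not used for this removal. The libraries labelled CD3-CD8-, the third fraction of the treated livers, go against that label, with 607 to 1080 CPM of Cd8a. Scaled together, the 9 treated libraries held 127 to 833 CPM of neutrophil genes in CD3+CD8+, 14600 to 39600 CPM in CD3+CD8- and 697 to 23900 CPM in libraries labelled CD3-CD8-. Of the 600 genes, 497 had a lower mean in the libraries labelled CD3-CD8- than in CD3+CD8- libraries. The 600 were chosen for high values in the CD3+CD8- libraries, which favours that count, so no conclusion is drawn from it.

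**Figure D5:**
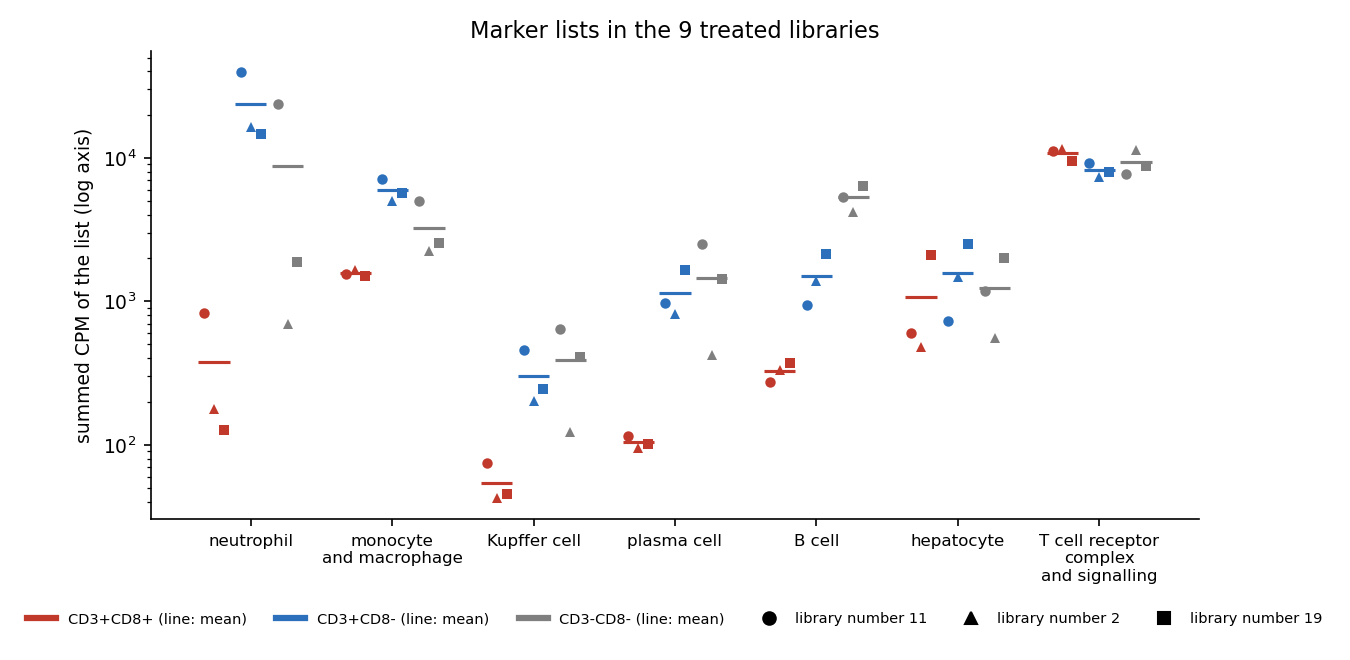
Summed CPM, on a log axis, of 7 marker lists in the 9 treated libraries scaled together; each point is a library, its shape gives the number and the line is the mean of 3. Neutrophil, monocyte, Kupffer and plasma cell lists are lower in all CD3+CD8+ libraries than in any CD3+CD8- library, hepatocyte genes overlap, and the T cell receptor list lies between 7330 and 11600 CPM in all 9.

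Whether the contrast between the fractions differed from that in untreated mice of the same model was tested as a difference of differences over 12 CD3+ libraries. No gene of 12120 tested (0.0%) passed in edgeR, 304 (2.51%) had an unadjusted p below 0.05, and DESeq2 called 71; the smallest edgeR adjusted p was 0.413. Gzmb was 1085, 707 and 1043 CPM in treated CD3+CD8+ and 130, 96.9 and 144 CPM in treated CD3+CD8- cells on this scale, against 206, 291 and 202 CPM and 103, 182 and 511 CPM in the untreated fractions. Its log2 fold change was 2.94 in treated and -0.18 in untreated livers, a difference of 3.12 ± 0.70 (edgeR adjusted p = 0.413, from 0.0943 to 1 over the alternatives in edgeR with the filter, and DESeq2 adjusted p = 0.00133). The untreated CD3+CD8- library with 511 CPM of Gzmb, number 6, also held 573 CPM of Cd8a against 4.17 and 5.84 CPM in numbers 5 and 18, so it goes against its label. Without it, without the 2 untreated CD3+CD8+ libraries rich in ribosomal counts and without treated CD3+CD8- number 2, again no gene was called. The other 4 genes of smallest p were small nucleolar or Cajal body RNAs (Snord15a, Snora23, Snora15 and Scarna6). These RNAs stood at 28.1 to 157 CPM in treated CD3+CD8- number 2, the library rich in ribosomal counts, and at most at 0.335 CPM in the other 5 treated libraries. In the untreated fractions they stood at 141 to 1295 CPM in CD3+CD8+ numbers 1 and 18 and at most at 0.709 CPM in the other 4 libraries.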

How the data were processed

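Per the submitters' processing notes, HTSeq 0.13.5, DESeq2 3.20, Cufflinks 2.2.1 and Trim Galore 0.6.7 were used; neither aligner nor build nor use of strand is given in the sources used here. The authors deposited raw gene counts for 48440 identifiers and, separately, FPKM values. Of 40 library columns in the table, 22 belong to no sample used here and were left out. Deposited positions match GENCODE vM21 (GRCm38) starts for 90.11% of genes after adding 1. Promoter sequences come from RefSeq, GRCm38.p6.

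Counts of the 6 libraries were filtered with filterByExpr, scaled by TMM and tested with edgeR 4.0.16 (R 4.3.3; quasi-likelihood test, two-sided, Benjamini-Hochberg adjustment over all genes, called below 0.05), with 4 residual degrees of freedom. CPM values are on that scale, and a library's count of 0 allows 3 counts, 0.114 to 1.24 CPM. Deviations from the group means over 7904 genes correlated between same-numbered libraries at r = 0.68 for 11, 0.14 for 2 and 0.61 for 19. Between differently numbered libraries r ran from -0.64 to 0.09, so number 2 stood little above these. Both libraries numbered 11 were on lane 2 and both numbered 19 on lane 3, so pairing and lane cannot be told apart there. Number 2 was on lane 2 for CD3+CD8+ and lane 3 for CD3+CD8-. The numbers were still taken as pairs for an alternative fit. That fit, with the library number as a block, is given for some of the genes and lists whose calls it changes, not for all. The title of the CD3+CD8- library number 11 repeats a digit; its number was read from the library name.

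Members and gene lists were chosen with earlier results of these data known. Genes named are 24 fixed ones, for each direction the 10 called genes of largest log2 fold change (without overlap, averaging 3 or more in log2 CPM, and leaving out unnamed gene models, pseudogenes, antigen receptor segments and ribosomal RNA loci), and up to 4 called members per list (with none called, up to 2 of the most abundant); the text names a part of these. Any other gene, such as Prf1, Fasl, Crtam, Eomes, Klrd1, Fos, Il21, Trdc and Cd79a, was chosen after its values were seen. Alternatives were other scalings, filters, tools (limma 3.58.1, DESeq2 1.42.0), GC and lane terms, FPKM on a log2 scale with a pseudocount of 1 or 0.1, and left-out libraries.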

Additional observations from a re-analysis of the deposited data

How the results depend on the processing

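The number of genes called in treated livers (652, of which 52 higher in CD3+CD8+ and 600 higher in CD3+CD8- cells) depended on the processing more than its direction did; the cause was not tested unless named. It was 297 (29 and 268) with library totals alone, 1098 (110 and 988) with no filter, 415 (32 and 383) with the stricter filter, 1013 with limma voom (137 higher in CD3+CD8+ cells), 333 (32 and 301) on log2(FPKM + 1) and 227 (31 and 196) on log2(FPKM + 0.1). Without a filter on FPKM, limma called 0 genes (0 and 0), with 924 at an unadjusted p below 0.05. With the library number as a replicate block it was 1069 (152 and 917), and 1031 (149 higher in CD3+CD8+ cells) with a GC offset as well; the block ended no call. Genes higher in CD3+CD8+ cells numbered 114 in DESeq2, 96 with lane as a covariate, 105 with a GC offset, 87 in a fit of 9 treated libraries and 15 when scaled to the 4 CD3 chains, the last 2 chosen after seeing the data. Without both libraries numbered 2 the count was 182 (7 and 175), in a fit with fewer samples. Leaving out single libraries gave 474 to 805 genes, 21 to 69 higher in CD3+CD8+ and 448 to 736 higher in CD3+CD8- cells. The difference between treated and untreated gave 0 genes in edgeR, but 72 with library totals alone, 324 with no filter and 71 in DESeq2; leaving out single libraries gave 0 each time. For the comparison within treated livers, more genes were higher in CD3+CD8- cells in every setting with calls.

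Signs turned only for genes that had not been called, save Ly6c1 (0.55 to 0.56 on FPKM). Ifng became 0.40 with library totals alone, 0.38 in voom, 0.79 and 0.83 on FPKM, and ranged from -0.37 to 0.27 with single libraries left out (0.18 without CD3+CD8+ number 19). Alb became 0.10 with library totals alone and 0.27 on FPKM, Ikzf2 0.06 and 0.10 on FPKM, and the ribosomal locus Rn18s-rs5 3.74 and 4.85 on FPKM, from -8.9 to 0.29 with single libraries left out and 0.60 without both libraries numbered 2. Tcf7 became -0.04 with the stricter filter, -0.06 without both libraries numbered 2, and ranged from -0.22 to 0.23 with single libraries left out (-0.12 without CD3+CD8+ number 2). Mki67 became -0.06 in voom and with lane, and -0.54 without CD3+CD8+ number 11 (up to 0.79 without other single libraries); Ptprc became -0.09 with lane and ranged from -0.08 to 0.33 with single libraries left out. Lag3 became -0.08 in voom and ranged from -0.33 to 0.82, and Pdcd1 from -0.13 to 0.64, with single libraries left out (Pdcd1 -0.01 without CD3+CD8- number 2). Scaled to the CD3 chains, Cd3e became -0.20, Ptprc -0.49, Pdcd1 -0.18, Tox -0.06, Tcf7 -0.64 and Mki67 -0.10. Other single-gene results kept their side of the threshold in 2626 cases, lost it in 445 and gained it in 158. Depth limits low genes most in CD3+CD8- number 2, where 3 counts are 1.24 CPM.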

Other observations

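Some genes around the CD8 chains differed with them. Within 200000 bases of Cd8b1 and Cd8a on chromosome 6, 13 genes were tested. Of these, 5 were higher in CD3+CD8+ cells, where 0.431% of all genes were. The 5 include Cd8a and Cd8b1, the sort markers that set the window, and the remaining genes were not called. Beside the chains, the called genes were Smyd1, a histone methyltransferase gene known from muscle (71213940 to 71322233), and 2 long noncoding RNAs. The latter, Gm44174 (71353035 to 71373284) and Gm44175 (71354351 to 71360829), overlap each other. Gm44174 was 38.4, 57.7 and 32.4 CPM in CD3+CD8+ libraries 11, 2 and 19 and 0.495, 0.828 and 0.113 CPM in CD3+CD8- libraries (log2 fold change 7.14 ± 0.62). The CD3+CD8- values rest on 2 counts each, so the size of this change is uncertain. Smyd1 was 7.44, 10.7 and 8.81 CPM against 0.743, 0.828 and 0.282 CPM, the latter from 3, 2 and 5 counts (4.14 ± 0.58, edgeR adjusted p = 0.00196). The use of strand in counting is not given in the sources used here, so reads of overlapping genes could not be told apart. All 3 were chosen after their values were seen.

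The treated libraries labelled CD3-CD8- go against that label. Scaled with the other treated libraries, they held 607, 1080 and 902 CPM of Cd8a in numbers 11, 2 and 19, and 192, 343 and 253 CPM of Cd3e. The CD3+CD8+ libraries held 1220, 1520 and 1420 CPM of Cd8a on this scale, and the CD3+CD8- libraries 14.1, 25.7 and 8.55 CPM. Of the 52 genes higher in CD3+CD8+ than in CD3+CD8- cells, 50 had a higher mean in CD3-CD8- than in CD3+CD8- libraries. These genes were chosen for low values in the CD3+CD8- libraries, which favours that count, so it says nothing about the label. The B cell list summed to 4210 to 6390 CPM in CD3-CD8- and 936 to 2150 CPM in CD3+CD8- libraries.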
